A study of Mus musculus with 14 samples.

Results

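Semaphorins, the plexins that receive them and the neuropilins that act with plexins were followed in olfactory epithelium of mouse pups. The genes were taken by symbol: all semaphorins of the vertebrate classes 3 to 7, all class A to D plexins, and both neuropilins, if listed in both deposited tables. This gave 31 genes of 51211 symbols, made up of 20 semaphorins, 9 plexins and 2 neuropilins. RNA was sequenced from 14 pups at postnatal day 5 (P5) in 2 experiments. The first asked what changes when olfactory sensory neurons (OSNs) are electrically silenced, and the second what changes after constant exposure to an aversive odor.

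In the first experiment, 3 Kir2.1 mice carried OMP-IRES-tTA and tetO-Kir2.1-IRES-tauLacZ, and 3 control mice were OMP-IRES-tTA het. The labels also call the former Kir2.1-off, a name that the study uses for mice later fed doxycycline to shut the transgene off, but these were taken at P5. Both groups carried tTA at the OMP locus, which is active in mature OSNs, and only the Kir2.1 mice carried the inward rectifier potassium channel Kir2.1 under its control. In the second experiment, 4 wild-type mice were exposed to 2-phenylethylamine (PEA) without interruption from P0 to P5 and 4 wild-type mice were not. The sample labels give C57BL/6 for every mouse, whereas the study's methods name CD-1 pups for odor exposure. Whole tissue was used, so each value is a sum over all cell types of the epithelium and of the tissue attached to it. In such samples, fewer cells of a type and less RNA per cell cannot be told apart. The labels do not say which mice shared a litter, so p-values measure only the spread between these mice.

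Semaphorins are secreted, membrane-bound or lipid-anchored cues with a shared sema domain, and most steer growing axons by repulsion. Plexins are their transmembrane receptors. The secreted class 3 proteins mostly bind a neuropilin, which holds the ligand while a class A plexin signals into the cell. In the olfactory system, Sema3a with Nrp1 and Sema3f with Nrp2 help to sort OSN axons along the axes of the olfactory bulb, and Sema7a on OSN axons acts through Plxnc1 on the dendrites of bulb neurons during synapse formation.

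All 31 genes had a value above 0 in every mouse of both experiments. Kir2.1 control mouse 1 stood apart in its vomeronasal genes (574 genes, the receptors and Trpc2). Their mean log2 value was 2.48 in it against 0.66 to 0.71 in the other 5 mice, and several values are also given without this mouse. In this measure the PEA control mice read 2.42, 1.86, 1.54 and 0.51 and the PEA-exposed mice 2.16, 0.68, 0.55 and 0.52, so the groups were not balanced. In the Kir2.1 experiment, Trpc2 by itself read 282.6 to 527.5 in control mice and 145.1 to 225.0 in Kir2.1 mice. The values are normalized counts as deposited, and levels were compared between genes only after division by exon length. In the Kir2.1 control mice, the class B plexin Plxnb2 had the highest level, at 4580 ± 109 normalized counts per kb of exons (SD, n = 3). Plxnb1 (1110 ± 205), Plxna1 (1090 ± 255), Sema4b (851 ± 66.5) and Sema7a (824 ± 83.5) came next, and within these 4 each differed from its neighbor in the order by less than the larger of their SDs. Sema3f (574 ± 72.5), Sema4c (560 ± 62.7) and Nrp2 (530 ± 49.8) formed another run of levels that the mice did not separate. Nrp1 stood at 288 ± 14 normalized counts per kb, above its ligand Sema3a at 148 ± 18.7. The lowest levels were those of Sema3g (16.8 ± 3.27) and Sema5b (7.54 ± 3.52).

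**Figure D1:**
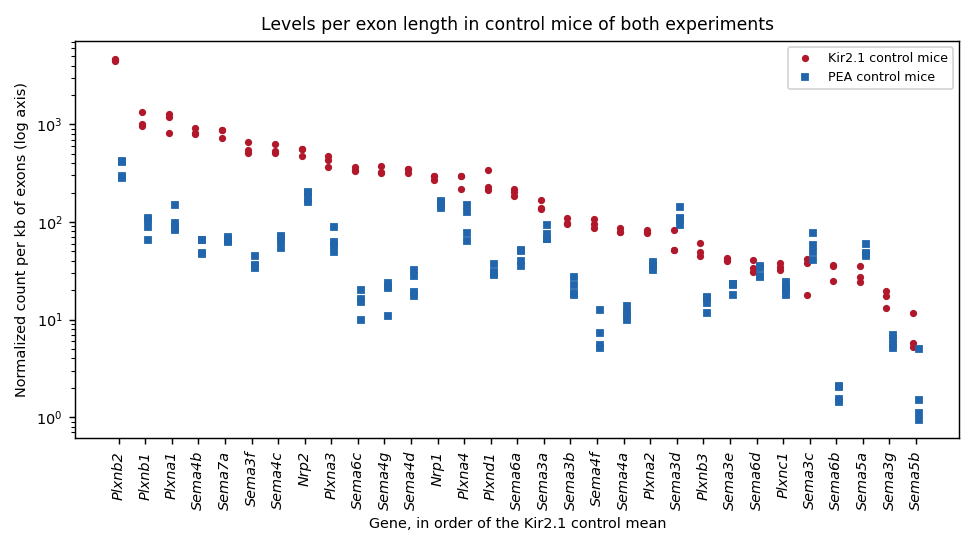
Normalized counts per kb of exons in the control mice of both experiments, on a log axis, with genes in the order of the Kir2.1 control mean. Each point is a mouse (3 Kir2.1 control mice, 4 PEA control mice). Plxnb2 was the highest gene in both experiments and Sema7a the fifth in the Kir2.1 control mice.

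In the PEA control mice Plxnb2 was again the highest, at 353 ± 72.9 normalized counts per kb (SD, n = 4), followed by Nrp2 (183 ± 20.1), Nrp1 (154 ± 11.5) and Sema3d (113 ± 20.4). Sema7a was at 65.7 ± 3.55 and held rank 9 of 31, against rank 5 in the Kir2.1 control mice. Sema6c held rank 25 against 10, Sema3f rank 16 against 6, and Sema3d rank 4 against 22. Across the 31 genes, Spearman's rank correlation between both sets of control means was 0.61, given as a description. The experiments differed in genotype, library kit and read length, and were normalized separately, so a difference in rank between them cannot be told apart from these.

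Sema7a fell in the Kir2.1 mice. The normalized count of Sema7a was 2895.8, 2400.0 and 2855.9 in the control mice and 1296.3, 1608.6 and 1382.8 in the Kir2.1 mice. All 3 Kir2.1 mice read well under the lowest control. The mean was 2717.2 ± 275 (SD, n = 3) in controls and 1429.2 ± 161 in Kir2.1 mice, which is 47.4% lower. The log2 fold change was -0.93 ± 0.11 (SE; 95% interval -1.19 to -0.66), with a limma adjusted p of 0.0322 (Benjamini-Hochberg over 19807 genes). Sema7a was the 1 gene of the 31 that passed, where 0.353% of all genes tested did. The call was close to its threshold. Leaving out any 1 of the 6 mice kept the log2 fold change between -1.02 and -0.86, but the adjusted p of limma was then 0.0484 to 0.134 (0.134 without control mouse 1), and it stayed under the threshold only without Kir2.1 mouse 2. It was also lost without the trended prior, which ties a gene's variance to its level (adjusted p = 0.124) and with the level of vomeronasal receptor genes (0.132) or of Xist (0.0625) as a covariate.

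Sema7a lies at chr9:57940112-57962865 on the plus strand of GRCm38. Its promoter and that of Sema6c are shown because these were the 2 genes of the family with the smallest p in the Kir2.1 experiment. Each run is the 250 bases before an annotated transcription start, from RefSeq on GRCm38.p6, at chr9:57939862-57940111 and chr3:95160170-95160419, both on the plus strand. Capitals mark the GC box, searched as GGGCGG on both strands.
Sema7a: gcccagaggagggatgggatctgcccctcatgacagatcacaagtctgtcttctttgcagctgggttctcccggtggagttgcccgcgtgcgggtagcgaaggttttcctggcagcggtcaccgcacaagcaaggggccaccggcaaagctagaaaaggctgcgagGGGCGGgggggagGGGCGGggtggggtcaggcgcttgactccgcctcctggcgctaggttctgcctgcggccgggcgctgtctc
Sema6c: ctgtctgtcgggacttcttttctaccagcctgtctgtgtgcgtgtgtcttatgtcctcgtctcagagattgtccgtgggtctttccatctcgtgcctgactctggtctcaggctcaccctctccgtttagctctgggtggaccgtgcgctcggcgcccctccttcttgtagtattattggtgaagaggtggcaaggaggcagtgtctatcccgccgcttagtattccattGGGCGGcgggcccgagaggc
The Sema7a window holds GC boxes at bases -84 to -79 and -71 to -66 from the start, and the Sema6c window holds one at -20 to -15. The GC content was 66.4% with 17 CpG sites for Sema7a and 57.6% with 15 CpG sites for Sema6c, against a median GC content of 52.4% over all promoters. Promoters were listed for 26 of the 31 genes, 37 windows in all. A GC box was present in 27 of the 37 windows, of 21 genes, and in 32.7% of the 32851 mouse promoters. This motif was added after the sequences had been seen. The cAMP response element TGACGTCA, a site of activity-regulated factors, was in none of the 37 windows and in 1.55% of all promoters. Its shorter form TGACG, which the full element contains, was found for Sema3d alone (17.8% of all promoters). The AP-1 site TGANTCA was found for Sema4c, Sema4d and Sema6b (6.75%), the EBF site (TCCC and GGGA around any pair of bases) for Plxnb1 (0.779%), and the homeodomain core TAATTA for none (4.84%). Such matches are letters in a window and were not tested for binding.

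Markers of mature OSNs were lower in the same mice. All 8 markers of mature OSNs had a log2 fold change between -0.60 and -0.34 in the Kir2.1 mice, all 8 with a limma p under 0.05 before adjustment and 1 after it. Their summed level was 116279 to 130127 in control mice and 85144 to 96703 in Kir2.1 mice. The 6 markers of immature OSNs had log2 fold changes from -0.15 to 0.10 with no p under 0.05. The 5 mesenchyme markers had log2 fold changes of 0.38 to 0.78, of which 2 had a limma p under 0.05 and none passed after adjustment. Their summed level was 107121 to 151071 in Kir2.1 mice and 56351 to 170204 in control mice, with control mouse 3 the highest of all. The 2 erythroid markers were at 0.88 and 1.08, both with a p under 0.05 and neither passing. Kcnj2, which encodes Kir2.1, read 985.9 to 1274.0 in control mice and 17925.7 to 24192.8 in Kir2.1 mice. The markers' part in any result given here was not tested.

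Measured against the mean of the 8 mature OSN markers in the same mouse, Sema7a was the lower in the Kir2.1 mice. On the log2 scale it stood -1.96, -2.33 and -2.14 from that mean in control mice and -2.71, -2.45 and -2.75 in Kir2.1 mice. The groups did not overlap on this scale, and the difference of the means was -0.49. This scaling was chosen after the data had been seen, and it raised the median log2 fold change of all genes to 0.44. The 8 markers differed among themselves (-0.60 to -0.34), so the value depends on which are averaged. The share of all genes whose groups did not overlap on this scale was not counted.

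**Figure D2:**
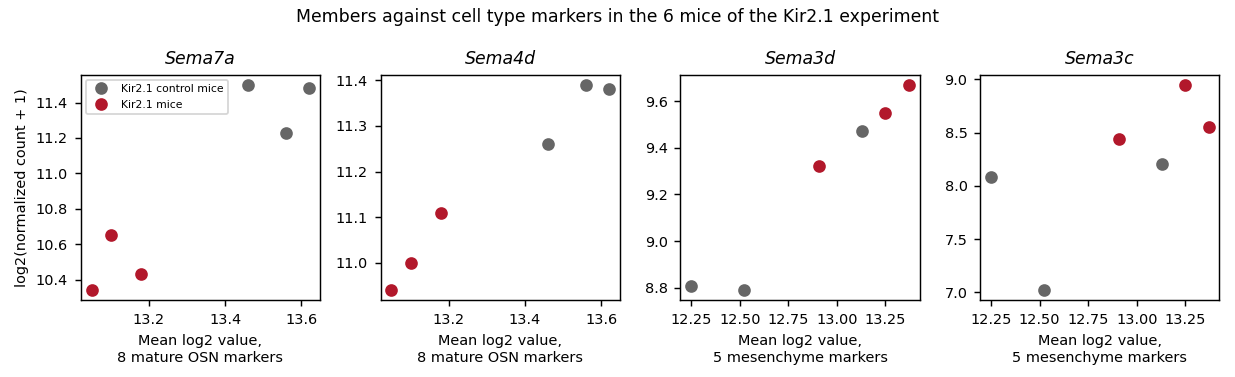
Level of 4 genes in the 6 mice of the Kir2.1 experiment, as log2(normalized count + 1), against the mean log2 value of 8 mature OSN markers (Sema7a, Sema4d) or 5 mesenchyme markers (Sema3d, Sema3c). Gray points are control mice and red points Kir2.1 mice. The 3 Kir2.1 mice had lower mature OSN means (13.05 to 13.18) than the 3 control mice (13.46 to 13.62), and control mouse 3 had a mesenchyme mean (13.13) within the range of the Kir2.1 mice.

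Of the other membrane semaphorins, Sema6c, Sema4d, Sema4g and Sema6a had lower means with a p under 0.05 before adjustment when OSNs were silenced, and none passed the adjusted test. With Sema7a and Plxna3 this made 6 of 31 genes, or 19.4%, against 6.2% of all genes. The count was 8 without control mouse 1, 3 without control mouse 2 or 3, and 4 to 5 without any 1 Kir2.1 mouse. The share of all genes was not counted in these fits, so a change of the family cannot be told from a general one. In 5 of the 31 genes the groups did not overlap and the Kir2.1 group was the lower, against 9.04% of all genes. Class 6 semaphorins are transmembrane proteins that signal through class A plexins. Sema6c read 1970.5, 2184.6 and 2018.6 in control mice and 1483.7, 1338.0 and 1718.1 in Kir2.1 mice. The groups did not overlap, and the log2 fold change was -0.45 ± 0.10 (limma adjusted p = 0.181). Sema6a read 1636.4, 1894.3 and 1766.0 in controls against 1367.9, 1612.2 and 1522.5. All Kir2.1 mice lay below all controls, although the highest Kir2.1 mouse and the lowest control mouse were close (log2 fold change -0.23 ± 0.09, limma adjusted p = 0.409).

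Sema4d, a ligand of Plxnb1, read 2456.2, 2679.7 and 2660.2 in control mice and 1960.5, 2040.7 and 2213.4 in Kir2.1 mice. The groups did not overlap (log2 fold change -0.33 ± 0.08, limma adjusted p = 0.183). Sema4g read 2776.6, 3248.5 and 2831.0 in controls against 2491.8, 2096.6 and 2682.9. Its groups did not overlap either, with Kir2.1 mouse 3 just under control mouse 1 (log2 fold change -0.29 ± 0.11, limma adjusted p = 0.401). Against the mature OSN marker mean, the log2 differences of Sema4d, Sema4g and Sema6a turned to 0.11, 0.15 and 0.20 and that of Sema6c went to -0.02. This scaling raised all genes together, to a median of 0.44, so genes this little below 0 turn by the shift itself. Whether these genes follow the markers was not tested.

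The remaining class 4 members differed less. Sema4f, at 512.8 ± 53.2 in controls and 426.0 ± 59.3 in Kir2.1 mice (SD, n = 3), had a log2 fold change of -0.27 (limma adjusted p = 0.541). Sema4a, Sema4b and Sema4c had log2 fold changes of 0.07, 0.01 and -0.03, and the 95% intervals of these 3 genes lay within -0.26 and 0.36. The class 4 median was -0.15 over 6 genes, beside 0.01 over all genes. With median centring 5 rather than 4 of the 6 were below 0, as were 11429 of the 19807 genes tested. Scaling to mature OSN markers put all 6 above 0, as it did 18237 of the 19807 genes.

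**Figure D3:**
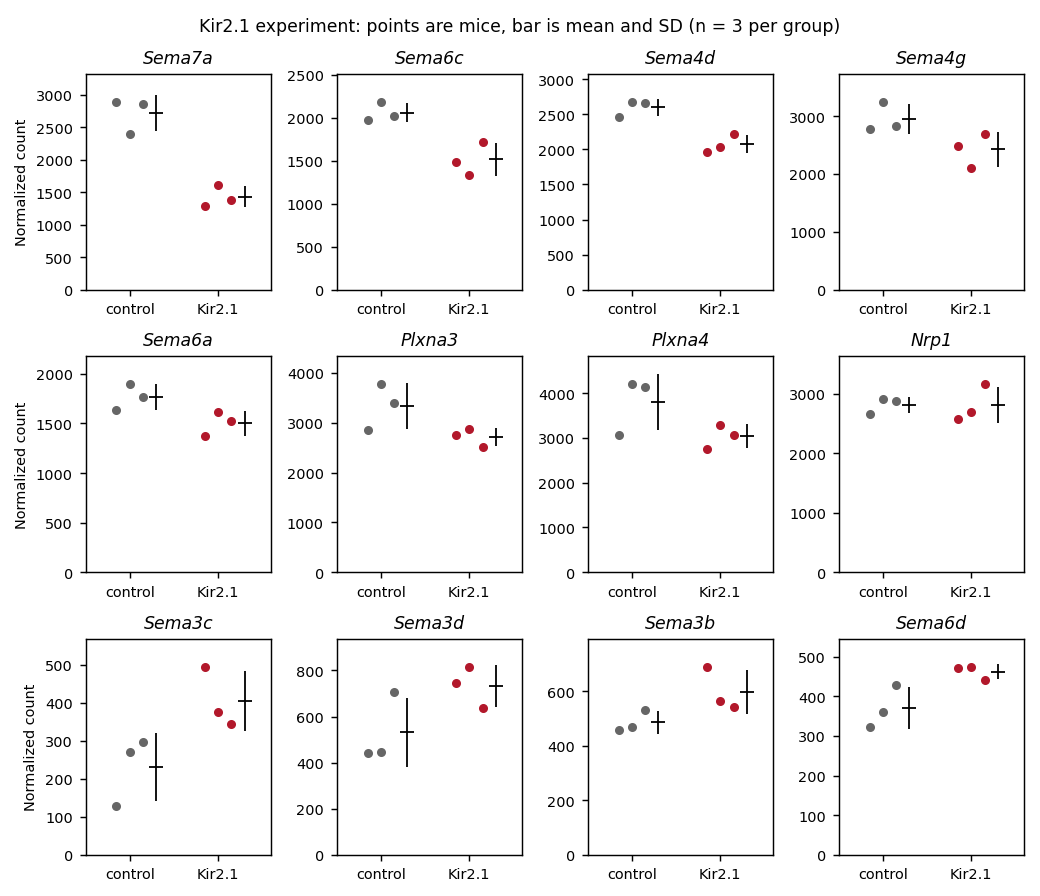
Normalized counts of 12 genes in the Kir2.1 experiment. Each point is a mouse, and the bar gives the mean and SD of 3 mice per group. Sema7a showed the widest gap between groups (2400.0 or more in control mice, 1608.6 or less in Kir2.1 mice), and the Nrp1 groups overlapped.

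Of the 7 secreted class 3 semaphorins, 4 had log2 fold changes above 0 and 3 below, with a median of 0.10. Sema3c, Sema3d and Sema3b, together with the transmembrane Sema6d, had higher means with a p under 0.05 before adjustment. These were 4 of 31 genes, or 12.9%, against 4.93% of all genes, and none had an adjusted p under 0.05. The count was 1 with quantile normalization or median centring, 1 without control mouse 1 or 2, and 0 without Kir2.1 mouse 1 or 2. Here too the share of all genes in these fits was not counted. In 3 of the 31 the groups did not overlap and the Kir2.1 group was the higher, where 7.26% of all genes did so. Sema3c, which guides axons and migrating cells, read 128.6, 269.4 and 295.9 in control mice and 494.2, 374.7 and 345.1 in Kir2.1 mice. The groups did not overlap, and control mouse 1 was far below the rest (log2 fold change 0.88 ± 0.32, limma adjusted p = 0.371). Without that mouse the log2 fold change was 0.50. Sema3d read 443.1, 446.4 and 705.8 in controls and 747.2, 815.9 and 636.0 in Kir2.1 mice. Control mouse 3 lay inside the Kir2.1 range (log2 fold change 0.49 ± 0.20, limma adjusted p = 0.419).

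Sema3b read 456.3, 466.9 and 532.2 in controls and 689.3, 562.9 and 540.9 in Kir2.1 mice. Its groups were separated by less than the SD of either (log2 fold change 0.30 ± 0.12, limma adjusted p = 0.441). Sema6d read 323.3, 360.3 and 428.6 in controls and 471.6, 474.3 and 440.7 in Kir2.1 mice. The Kir2.1 mice were the more alike of the groups (log2 fold change 0.33 ± 0.13, limma adjusted p = 0.402). Measured against the mean of the 5 mesenchyme markers, the log2 differences of Sema3b, Sema3d and Sema6d turned to -0.24, -0.05 and -0.21, and that of Sema3c was 0.34. That scaling was also chosen after the data had been seen and took the median of all genes to -0.53. Genes as little above 0 as those that turned do so by this shift itself.

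The ligand and receptor pairs known for sorting OSN axons showed small differences. Sema3a had a log2 fold change of -0.05 (95% interval -0.36 to 0.25) and Nrp1 of -0.01 (-0.23 to 0.21). Nrp1 read 2659.0, 2910.9 and 2880.1 in control mice and 2576.6, 2697.3 and 3161.2 in Kir2.1 mice, so the Kir2.1 mice lay on both sides of the controls. Sema3f had a log2 fold change of -0.03 (-0.31 to 0.24) and Nrp2 of 0.05 (-0.19 to 0.29). Sema3e, the ligand of Plxnd1, was at -0.19 and Sema3g at 0.10. The class 5 genes Sema5a and Sema5b, whose proteins carry thrombospondin repeats, were at 0.19 and -0.41, and Sema6b was at 0.10. None of these had a limma p under 0.05 before adjustment.

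Among the receptors, Plxna3, which pairs with neuropilins in class 3 signaling, read 2857.2, 3769.7 and 3389.9 in control mice and 2752.9, 2876.0 and 2506.4 in Kir2.1 mice. Control mouse 1 fell inside the Kir2.1 range (log2 fold change -0.29 ± 0.11, limma adjusted p = 0.401). Against the mature OSN markers, a scaling that took the median of all genes to 0.44, the difference turned to 0.14. Plxna4 gave -0.31 (limma adjusted p = 0.461) and Plxna1 -0.24, with control mouse 1 the lowest control for both, and Plxna2 gave 0.06. Without control mouse 1, Plxna3, Plxna4 and Plxna1 were at -0.40, -0.46 and -0.45, with limma adjusted p-values of 0.311, 0.248 and 0.201. The class B plexins Plxnb1, Plxnb2 and Plxnb3 were at 0.01, 0.05 and 0.13. Plxnc1, a Sema7a receptor, read 291.4 ± 23.1 in controls and 318.4 ± 62.3 in Kir2.1 mice (SD, n = 3; log2 fold change 0.11, 95% interval -0.26 to 0.49). Plxnd1, a receptor prominent in blood vessels, gave 0.35 (limma adjusted p = 0.543).

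Over all 31 genes, 15 log2 fold changes were below 0 and 16 above, with a median of 0.01, the same as over the 19807 genes tested. A list of 40 partner genes held co-receptors, semaphorin receptors other than plexins, and signaling partners. Of these, 1 was lower and 1 higher with a limma p under 0.05 (2.5% each, against 6.2% and 4.93% of all genes), and after adjustment there were none. The 3 with the smallest p are given, as a description. The former was Rnd2, a protein that binds plexins (2815.9 ± 72.0 against 2105.7 ± 247, SD, n = 3; log2 fold change -0.43, limma adjusted p = 0.164). The latter was Itga1, an integrin alpha subunit (log2 fold change 0.46, limma adjusted p = 0.443). The vascular receptor Kdr came next (0.41, limma adjusted p = 0.483).

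In the PEA experiment none of the 30 genes tested passed, where 0.179% of all genes did. Sema6b was below the filter, with 5.67 to 8.28 in control mice and 10.5 to 12.8 in PEA-exposed mice. Before adjustment, with a limma p under 0.05, Sema4b was higher (1 of 30 genes, 3.33%, against 8.93% of all genes) and Sema6a and Sema3d were lower (2 of 30, 6.67%, against 6.04%). Of the 30 genes tested, Sema4b alone had groups that did not overlap with the exposed mice higher (background 5.46%), as Sema6b did under the filter, and no gene tested had all exposed mice below all controls (background 3.86%). These shares are near or below those of all genes. Leaving out any 1 of the 8 mice gave 1 to 3 genes in each direction (3 higher without control mouse 4 or exposed mouse 3) and none that passed. For those fits the share of all genes was not counted.

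Sema4b, a transmembrane semaphorin, read 264.2, 366.5, 271.2 and 366.4 in control mice and 457.3, 516.6, 455.1 and 411.8 in PEA-exposed mice. The lowest exposed mouse lay above the highest control (log2 fold change 0.55 ± 0.14, limma adjusted p = 0.138). Sema6a read 310.8, 450.0, 350.0 and 444.7 in controls and 327.1, 296.7, 271.6 and 246.1 in exposed mice. Exposed mouse 1 lay above control mouse 1, so the groups overlapped (log2 fold change -0.44 ± 0.15, limma adjusted p = 0.228). Sema3d read 940.1, 809.6, 927.8 and 1222.1 in controls and 795.5, 660.4, 814.2 and 777.2 in exposed mice. The groups met at control mouse 2 and exposed mouse 3 (log2 fold change -0.34 ± 0.13, limma adjusted p = 0.275). In the exposed mice, 4 of 5 mesenchyme markers had log2 fold changes below 0 (-0.41 to 0.13 over all 5). All 4 cartilage and bone markers did (-1.37 to -0.19). Of each list, 2 were lower with a limma p under 0.05. The 3 horizontal basal cell markers were at 0.0 to 0.63, 2 of them higher with a p under 0.05. The 8 mature OSN markers ranged from -0.37 to 0.31. No marker of these lists passed, and their part was not tested.

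**Figure D4:**
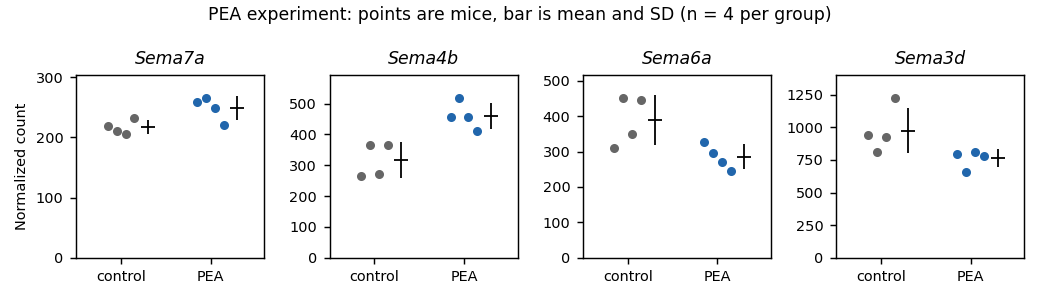
Normalized counts of 4 genes in the PEA experiment. Each point is a mouse, and the bar gives the mean and SD of 4 mice per group. The exposed mice lay above the controls for Sema4b (411.8 or more against 366.5 or less), and the groups overlapped for Sema7a, Sema6a and Sema3d.

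Sema7a read 219.2, 210.2, 205.3 and 231.9 in control mice and 259.3, 264.5, 249.2 and 220.0 in PEA-exposed mice. Exposed mouse 4 lay between controls, and the other exposed mice above all of them (log2 fold change 0.19 ± 0.11, 95% interval -0.05 to 0.44, limma adjusted p = 0.449). All 6 class 4 semaphorins had log2 fold changes above 0, from 0.07 for Sema4g to 0.58 for Sema4f, except that Sema4g went just below 0 under quantile normalization. Sema4b was the one among them with a p under 0.05, and the next was Sema4c (0.32, limma adjusted p = 0.373). The class 4 median was 0.32, beside 0.04 over the 30 genes and -0.02 over the 17322 genes tested.

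The other ligands had log2 fold changes of -0.28 (Sema3g), -0.25 (Sema3c), -0.25 (Sema5a), -0.03 (Sema3b), -0.02 (Sema3a), 0.01 (Sema6d), 0.05 (Sema3e), 0.24 (Sema3f), 0.35 (Sema6c) and 0.83 (Sema5b). Sema5b, at 6.6 to 41.5 normalized counts, was the least precise (SE 0.54). Nrp1 was at -0.13 (95% interval -0.34 to 0.09) and Nrp2 at -0.10 (-0.34 to 0.14). Both turned above 0 when scaled to mesenchyme markers, which took the median of all genes to 0.13. The 9 plexins ranged from -0.25 for Plxnc1 to 0.34 for Plxnb1 (880.2 ± 186 in controls, 1097.9 ± 113 in exposed mice, SD, n = 4; limma adjusted p = 0.347), and none had a p under 0.05. Of the 40 partner genes, 37 were tested, of which 2 were lower and 3 higher with a limma p under 0.05 (5.41% and 8.11%, against 6.04% and 8.93% of all genes), and none passed after adjustment. Gipc1, whose PDZ domain binds the tail of Nrp1, had a log2 fold change of 1.33 (178.7 ± 55.3 against 441.0 ± 93.0, limma adjusted p = 0.0676), and Erbb2, which can act with class B plexins, of 0.58 (adjusted p = 0.068). The kinase Gsk3b followed at -0.41 (adjusted p = 0.284).

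**Figure D5:**
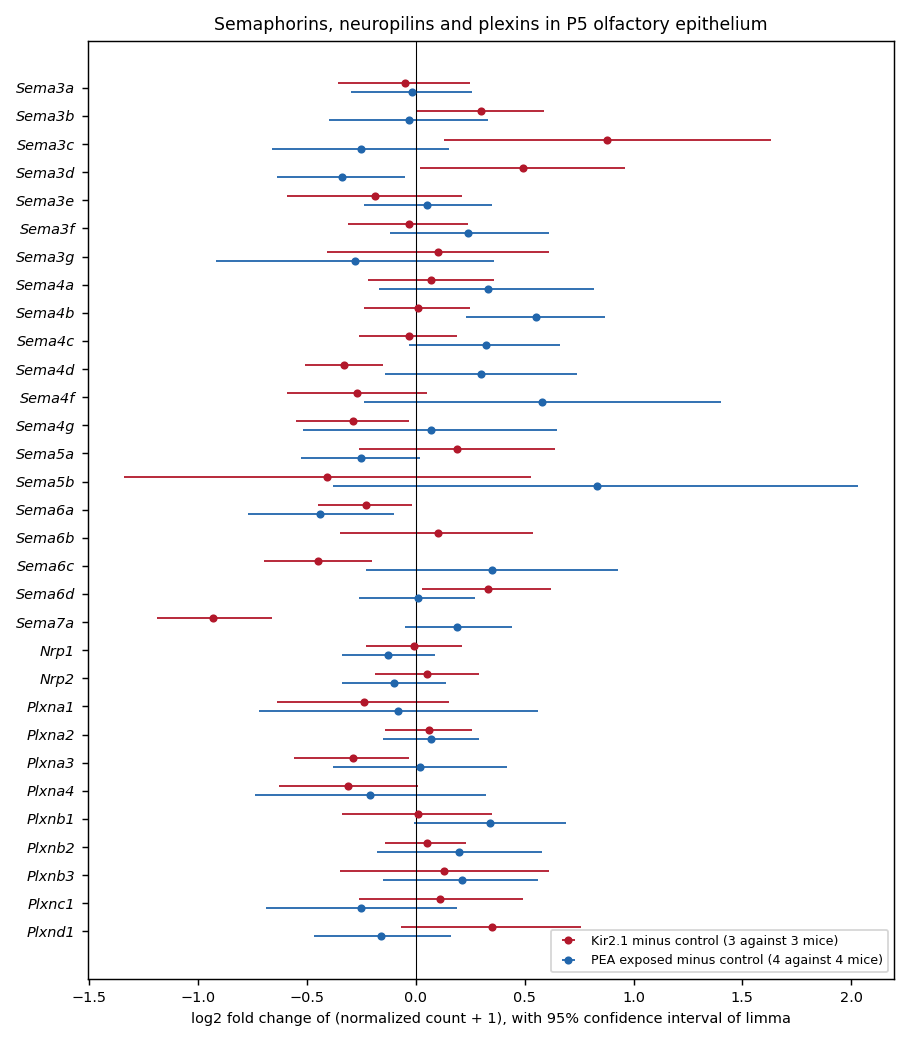
Log2 fold changes of the 31 genes with 95% confidence intervals from limma, on the scale of log2(normalized count + 1). Red marks Kir2.1 minus control (3 against 3 mice), blue PEA exposed minus control (4 against 4 mice). Sema7a at -0.93 is the value farthest below 0, and its PEA value of 0.19 has an interval that crosses 0. Sema6b was tested in the Kir2.1 experiment only.

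The experiments share no mice, and the difference between their effects was tested in 1 model over all 14 mice and 16705 genes. Sema7a was the 1 of 30 genes that passed, where 0.443% of all genes did. Its Kir2.1 effect minus its PEA effect was -1.12 ± 0.15 on the log2 scale (95% interval -1.45 to -0.79, limma adjusted p = 0.00428). Leaving out any 1 of the 14 mice kept this difference between -1.21 and -1.05 with a limma adjusted p of 0.00455 to 0.0215. The call was lost with a replicate block, although the replicate numbers did not pair the mice. The difference was not refitted with the vomeronasal receptor or Xist covariate or without the trended prior, which each removed the Kir2.1 call. Before adjustment, the effects of 7 of the 30 differed with a p under 0.05, or 23.3%, against 13.2% of all genes. For Sema3c (1.13), Sema3d (0.83) and Plxnd1 (0.50) the Kir2.1 effect was the higher, with limma adjusted p-values of 0.217, 0.169 and 0.366. Without Kir2.1 control mouse 1 the value for Sema3c was 0.75, and without control mouse 3 that for Sema3d was 1.06 and passed (limma adjusted p = 0.0482). Control mouse 3 had the highest mesenchyme marker mean of the Kir2.1 control mice (13.13 against 12.52 and 12.25). Scaled to mesenchyme markers, the Kir2.1 effect on Sema3d was -0.05, and the markers' part was not tested. For Sema4b (-0.54), Sema4d (-0.63) and Sema6c (-0.80) the Kir2.1 effect was the lower, with limma adjusted p-values of 0.246, 0.289 and 0.317. For Sema6a, below 0 in both experiments, the difference was 0.20 (95% interval -0.22 to 0.62). For Nrp1 and Nrp2 the differences were 0.12 (-0.18 to 0.41) and 0.14 (-0.19 to 0.48). Library type differed between the experiments and the strain of the PEA mice is given in conflicting ways, so the part of either in these differences cannot be told apart from that of the treatments.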

How the data were processed

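RNA of P5 olfactory epithelium was sequenced from 14 mice. The authors made poly-A libraries for the Kir2.1 experiment and ribosomal-RNA-depleted, stranded libraries for the PEA experiment. They quantified reads with Salmon 1.3.0 against mm10 transcripts, using a stranded setting although the Kir2.1 kit does not mark strand, and normalized gene sums with DESeq2 1.30.0. The deposited values are this normalized signal, called normalized counts here. Whole reads could not be recovered (6.4 to 18.8% of values per mouse were multiples of the commonest low value, within 0.02), so depth is unknown and count tests were not run. Deposited values summed to 33049111 to 34198478 per mouse in the Kir2.1 experiment and 11476120 to 12467331 in the PEA experiment.

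Each experiment was fitted separately on log2(value + 1), using limma 3.58.1 (R 4.3.3) with its trended prior, over genes with a mean of at least 10. Fold changes on this scale understate changes of low genes. P-values are two-sided, adjusted by Benjamini-Hochberg over all genes, with a threshold of 0.05. A joint fit of all 4 groups gave the difference between effects. Exon lengths are the merged exons of the GENCODE annotation of GRCm38. Genes of the family with an unadjusted p under 0.05 in either experiment were given in full, with Sema7a and the best-known axon-sorting pairs. The family, the marker and partner lists and the rules were chosen with earlier results of these data known. The scripts were tested on simulated data. Alternatives covered the pseudocount, the filter, the limma prior, the scaling, covariates, the replicate block and leaving out each mouse.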

Additional observations from a re-analysis of the deposited data

Results flagged for a closer look

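In 4 mice of a group, 1 mouse stood apart from the other 3 by Dixon's test for 2 genes. Sema3e read 164.7 in PEA control mouse 2, against 209.0 to 217.2 in the other PEA control mice. Sema5b read 35.1 in PEA control mouse 1, against 6.6 to 10.7 in the others. With 62 groups of 4 mice tested, chance alone flags about 1 in 20 of them.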

How the results depend on the processing

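The genes given in full for a p under 0.05, and Sema7a in the PEA experiment, kept their direction and their side of the threshold under pseudocounts of 0.5 and 5, a minimum mean of 50 or none, robust limma, quantile normalization and median centring. Some genes near 0 did not, such as Nrp1 in the Kir2.1 and Sema4g in the PEA experiment under quantile normalization. Leaving out 1 mouse kept the call of Sema7a in the Kir2.1 experiment in 1 of 6 fits. The cause of this and of the losses that follow was not tested. With all mice, Sema7a lost its call, with its fold change between -0.93 and -0.88, in the fits that left 0 genes of the family called. These were limma without trend (20 genes called in all, and 3 of the family lower and 1 higher before adjustment), the vomeronasal receptor covariate (23 called, 1 higher), the Xist covariate (44 called) and the replicate block (9 called, 0 higher, Sema7a adjusted p = 0.141 by limma). The replicate numbers did not pair the mice: correlations of same-numbered mice ran from -0.06 to 0.16 in the Kir2.1 experiment and from -0.05 to 0.13 in the PEA experiment. In the test of the difference between effects, the replicate block left 18 genes called, 0 of the family, and Sema7a at a limma adjusted p of 0.0747, and precision weights per experiment gave 122 called.

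Quantile normalization and median centring left 1 gene of the family higher before adjustment in Kir2.1 mice. In the PEA experiment 2 rather than 1 were higher with no filter on low values (52 genes called in all), quantile normalization, the replicate block or the vomeronasal receptor covariate (20 called). A threshold of 0.1 on the adjusted p gave 171 genes in the Kir2.1 and 128 in the PEA experiment.

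Scalings to marker means, chosen after seeing the data, moved all genes together. In Kir2.1 mice 2 of 31 rather than 15 were below 0 when scaled to mature OSN markers, beside 1570 of all 19807 genes. When scaled to mesenchyme markers, 30 of the 31 were below 0, beside 18578 of the 19807. Among the genes given in full, 7 turned. To mature OSN markers, Sema4d went to 0.11, Sema4g to 0.15, Sema6a to 0.20 and Plxna3 to 0.14. To mesenchyme markers, Sema3b went to -0.24, Sema3d to -0.05 and Sema6d to -0.21. Scaling to mature OSN markers also took Sema3b to 0.73, Sema3c to 1.31, Sema3d to 0.92 and Sema6d to 0.76, each then under the adjusted threshold. That fit raised the median of all genes to 0.44, and the share of all genes that passed in it was not counted.

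Without 1 mouse at a time, the Kir2.1 experiment gave 23 to 44 genes called, 0 to 1 of the family, with 3 to 8 of the family lower and 0 to 5 higher before adjustment. The PEA experiment gave 19 to 43 genes called and 0 of the family, with 1 to 3 lower and 1 to 3 higher. For all counts of the family before adjustment in this section, the share of all genes was not counted. The test of the difference, for which leaving out mice was added after seeing the data, gave 29 to 161 genes called and 1 to 2 of the family. Depth is unknown, so counting error could not be separated from the spread between mice.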
